A study of Mus musculus with 12 samples.

Results

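The genes described here are 10 genes of spinal motor neurons, of acetylcholine signaling and of the axonal cytoskeleton. They were taken by name: MNX1 and ISL1 (motor neuron transcription factors), CHAT, SLC5A7, SLC18A3 and ACHE (acetylcholine synthesis, uptake, packaging and breakdown), and NEFL, NEFM, NEFH and PRPH (intermediate filaments of axons). The deposited table lists 10 of the 10 among 13647 genes above the lesion and 8 of the 10 among 12338 genes below it, where ISL1 and ACHE are not listed.

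The tissue came from male mice that expressed human ApoE4, were 4 months old at surgery and received a contusion at thoracic level 9. Spinal cord just rostral (above) or just caudal (below) to the lesion was taken at 14 days, and bulk RNA was sequenced, with 4 groups of 3 libraries (12 in all). The groups labelled synj1+/+ had normal synj1 alleles on both chromosomes, and the groups labelled synj1+/- carried an inactivated synj1 allele next to a normal one. All 4 groups carried ApoE4 and were injured, and sham-operated or ApoE3 tissue was not analysed here. The labels name no restriction of the synj1 allele to a cell type. The study's methods give 3 mice of each genotype for sequencing, so segments above and below the lesion appear to share mice, although the labels number them differently.

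Motor neurons are the cholinergic output cells of the cord. Choline acetyltransferase (CHAT) makes acetylcholine from choline and acetyl-CoA, the vesicular transporter SLC18A3 loads it into synaptic vesicles, acetylcholinesterase (ACHE) splits it in the synaptic cleft, and the high-affinity transporter SLC5A7 takes the choline back up. The neurofilament subunits NEFL, NEFM and NEFH form the filaments that set the caliber of large axons, and peripherin (PRPH) is a related filament protein of motor and sensory neurons. In the thoracic cord, preganglionic sympathetic neurons and a few interneurons are cholinergic too, and neurofilament genes are used by most projection neurons, so the 10 genes do not mark motor neurons alone.

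CHAT and SLC18A3 form a nested locus. In the GENCODE M21 annotation of GRCm38, CHAT lies on the minus strand at chr14:32408203-32465989, and SLC18A3 lies within it on the same strand at chr14:32462438-32464850. SLC18A3 sits in the intron of 4893 bases between exons 1 and 2 of an annotated CHAT transcript with 16 exons, and the genes share 0 exonic bases. SLC5A7 lies on another chromosome, at chr17:54273590-54299034. The sequences before the start sites of these 3 genes are shown because the values given further on differ most between the sites for them. They are from RefSeq on GRCm38.p6, minus strand, 5′ to 3′, and cover chr14:32465990-32466159 for CHAT (170 bases, leaving out bases that GENCODE places in the gene), chr14:32464851-32465100 for SLC18A3 (250 bases) and chr17:54299035-54299284 for SLC5A7 (250 bases). Capitals mark the TATA box (TATAAA), the CCAAT box and the GC box (GGGCGG) on either strand.
CHAT: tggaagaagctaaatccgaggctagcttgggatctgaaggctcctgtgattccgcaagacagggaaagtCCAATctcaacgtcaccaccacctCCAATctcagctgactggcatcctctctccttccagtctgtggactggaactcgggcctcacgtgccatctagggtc
SLC18A3: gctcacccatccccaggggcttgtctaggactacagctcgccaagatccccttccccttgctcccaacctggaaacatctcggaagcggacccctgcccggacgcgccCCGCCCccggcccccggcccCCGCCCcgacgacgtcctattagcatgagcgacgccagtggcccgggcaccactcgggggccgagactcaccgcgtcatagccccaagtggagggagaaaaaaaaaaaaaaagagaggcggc
SLC5A7: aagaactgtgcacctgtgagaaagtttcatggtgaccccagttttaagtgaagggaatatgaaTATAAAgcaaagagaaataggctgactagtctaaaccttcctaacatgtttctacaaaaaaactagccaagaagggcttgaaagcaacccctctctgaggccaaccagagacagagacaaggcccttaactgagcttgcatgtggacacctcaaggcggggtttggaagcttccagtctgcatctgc
The SLC18A3 stretch held 2 GC boxes and was 66.0% G or C with 21 CG dinucleotides. The CHAT stretch was 54.7% G or C with 5 CG dinucleotides and held 2 CCAAT boxes, and the SLC5A7 stretch was 45.6% G or C with 1 CG dinucleotide and held a TATA box. Over 250 bases before the start of 32851 RefSeq promoters, the TATA box was present in 12.4%, the CCAAT box in 33.8% and the GC box in 32.7%. A further motif, TAATTA, a core bound by many homeodomain proteins, was present in 4.84% of all promoters and in 0 of the 7 member promoters in that table (MNX1, ISL1, CHAT, SLC5A7, SLC18A3, ACHE and PRPH). These matches are a description of letters in this window. Entries for NEFL, NEFM and NEFH were not used.

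The values are FPKM (fragments per kilobase of transcript per fixed number of sequenced fragments, here with the authors' upper quartile normalization), and FPKM can be compared between genes because it is a level per length. The table gives a single value for each genotype and site, which combines the 3 libraries, so the spread between libraries could not be computed. The authors' own test columns in the table were not used, so no difference given here was tested or set against replicate error, and all statements describe these 4 group values. The libraries of a site had been reduced to the same number of reads, and the table does not give how many reads lie behind a value. The lowest deposited value is exactly 1, and the values were read as FPKM plus 1. FPKM are printed with that 1 removed, and log2 ratios, always synj1+/- over synj1+/+ as labelled, are on the deposited scale, which makes the ratio of a low gene smaller. In bulk tissue, fewer cells of a type and less RNA per cell cannot be told apart.

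SYNJ1, the gene whose allele defines the genotypes, had its higher value under the label synj1+/- both above and below the lesion. Above the lesion the label synj1+/+ went with an FPKM of 1904 and the label synj1+/- with 2403 (log2 ratio 0.34), and below it these values were 1846 and 2592 (log2 ratio 0.49). This runs against the labels, no other measure of SYNJ1 was analysed here, and every direction is given for the groups as labelled. Over all listed genes the median log2 ratio was -0.0039 above and 0.014 below the lesion. Markers of cord tissue were present, with GFAP of astrocytes, MOBP of oligodendrocytes and SNAP25 of neurons at an FPKM of 5238 or more in every group. The defining motor neuron factors were low: MNX1 had an FPKM of 1.51 to 2.19, ISL1 lay at 0.882 and 1.46 above the lesion, and LHX3, the partner of ISL1 in motor neuron specification, is not listed at either site.

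The 10 genes spanned about the whole range of levels in the cord. Above the lesion in the group labelled synj1+/+, the order of FPKM was NEFM (1001), ACHE (803), NEFL (678), NEFH (309.5), PRPH (214), SLC5A7 (84.0), SLC18A3 (39.0), CHAT (9.87), MNX1 (1.51) and ISL1 (0.882). NEFM lay at percentile 98.2 of all listed genes there, CHAT at percentile 21.1 and ISL1 at percentile 0.161. Among the 8 genes listed at both sites, this order was the same in each of the 4 groups, and no spread is available to say whether neighbors in it differ beyond error. The plot of group values shows the levels.

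**Figure D1:**
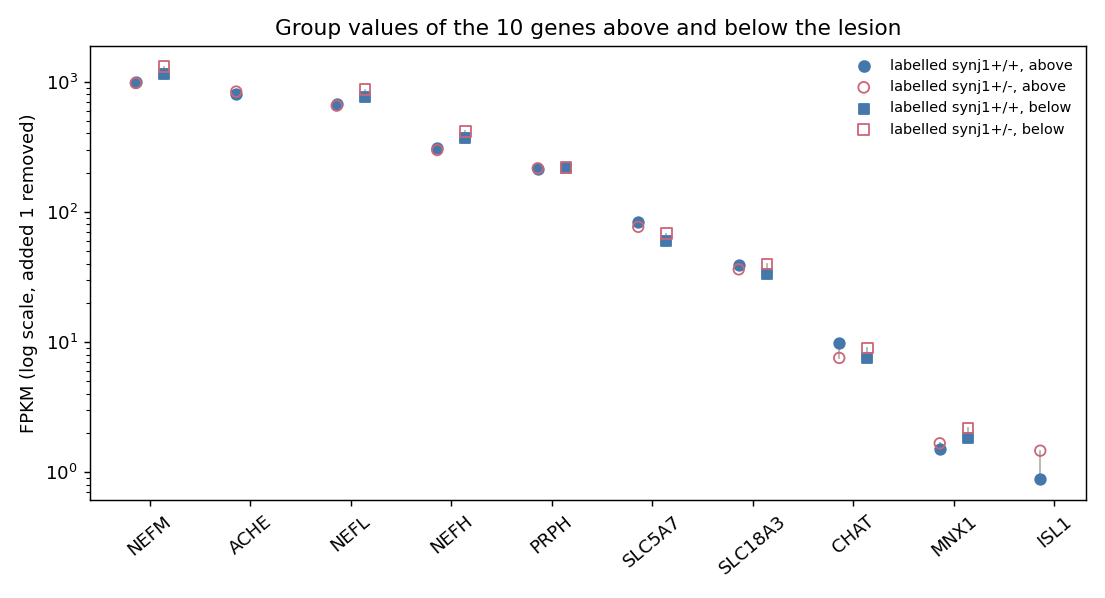
FPKM of each gene on a log axis, with the 1 that was read as added removed, as 1 value per group of 3 libraries and therefore without error bars. Circles are above and squares below the lesion, filled symbols the groups labelled synj1+/+ and open symbols those labelled synj1+/-. The levels run from 0.882 for ISL1 to 1307 for NEFM, and the values of a gene lie closer to each other than to most other genes.

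The cholinergic genes CHAT, SLC5A7 and SLC18A3 had lower values above and higher values below the lesion in the groups labelled synj1+/-, although centering on general neuron genes takes the log2 ratios below to 0.035, -0.0098 and 0.064. For CHAT, the FPKM above the lesion was 9.87 under the label synj1+/+ and 7.54 under the label synj1+/-, and below it 7.57 and 9.00. Its values thus crossed, with the synj1+/+ label higher above the lesion and the synj1+/- label higher below. The log2 ratio of CHAT was -0.35 above and 0.22 below. A ratio further from 0 in either direction was found for 9.78% of listed genes above and 34.2% below, so the ratio of CHAT was further out among all genes above the lesion than below it.

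SLC18A3, the vesicular transporter within the CHAT locus, had an FPKM of 39.0 and 36.1 above the lesion and 33.1 and 39.6 below it in the groups labelled synj1+/+ and synj1+/-. Its log2 ratio was -0.11 above and 0.25 below. The FPKM of SLC5A7, the choline transporter, was 84.0 and 76.7 above and 59.9 and 67.8 below, with log2 ratios of -0.13 and 0.18. For SLC5A7 both groups below the lesion were lower than both groups above it, whereas the groups of SLC18A3 interleaved. Of all listed genes, 50.9% had a larger absolute log2 ratio than SLC18A3 above the lesion and 29.2% did below, and for SLC5A7 these shares were 44.5% and 43.7%.

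ACHE, the enzyme that ends the action of acetylcholine and that is also made by cells that release no acetylcholine, is listed only above the lesion. Its FPKM was 803 under the label synj1+/+ and 840 under the label synj1+/-, a log2 ratio of 0.06. Its level was about that of the neurofilament genes and not that of the other cholinergic genes. In GENCODE, 98 of its exonic bases (2.12%) overlap a gene on the opposite strand, and the library kit named in the methods (TruSeq RNA v2) does not mark strand, so reads from these bases cannot be told apart.

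The transcription factors were close to the lowest levels in the table. MNX1, which specifies motor neuron identity in the embryo, had an FPKM of 1.51 and 1.66 above and 1.82 and 2.19 below the lesion. Its log2 ratio was 0.09 above and 0.18 below (-0.012 below when centered on general neuron genes). ISL1, a homeodomain factor of motor neurons that is also used by sensory neurons and dorsal horn neurons, had an FPKM of 0.882 and 1.46 above the lesion. Its log2 ratio was 0.39 on the deposited scale and 0.73 with the added 1 removed. At such levels the added 1 is about as large as the value itself. Every gene listed above the lesion had a deposited value of at least 2.175 in at least 1 group there. ISL1 reached this only under the label synj1+/-, with deposited values of 1.88 and 2.46. Its listing may rest on that group alone, so the direction of its ratio cannot be read as a result.

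The 3 neurofilament subunit genes had ratios close to one another at each site. Above the lesion the FPKM in the groups labelled synj1+/+ and synj1+/- was 678 and 655 for NEFL, 1001 and 976 for NEFM, and 309.5 and 298.5 for NEFH. Below the lesion it was 764 and 870 for NEFL, 1140 and 1307 for NEFM, and 372 and 416 for NEFH. For each subunit the 4 groups stood in the same order, with synj1+/- above lowest, then synj1+/+ above, synj1+/+ below and synj1+/- below. The log2 ratios were between -0.05 and -0.04 above and between 0.16 and 0.20 below, where those of NEFL and NEFH, but not NEFM, turn negative (-0.0014 and -0.027) when centered on general neuron genes. Above the lesion at least 74.4% of all listed genes had a larger absolute log2 ratio than any of the 3, so these values lay in the middle of all genes.

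PRPH did not follow the 3 neurofilament genes. Its FPKM was 214 and 216 above and 219 and 218 below the lesion, with log2 ratios of 0.02 and -0.01. All 4 groups thus lay between 214 and 219. Below the lesion, 97.8% of listed genes had a larger absolute log2 ratio than PRPH.

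**Figure D2:**
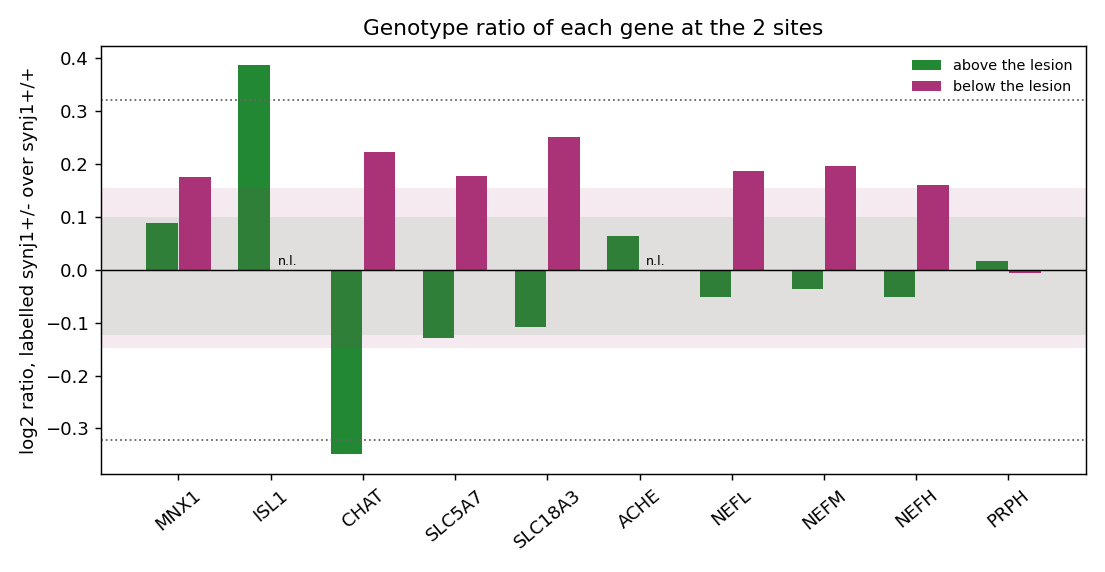
Bars give the log2 ratio, synj1+/- over synj1+/+ as labelled, for each gene above (green) and below (purple) the lesion, from 1 value per group and without error bars. Shaded bands hold the middle 50% of all listed genes at each site, dotted lines mark values 25% higher or 20% lower, and n.l. marks a gene not listed. CHAT, SLC5A7, SLC18A3, NEFL, NEFM and NEFH are below 0 above the lesion and above 0 below it, and centering on general neuron genes takes SLC5A7, NEFL and NEFH below 0 at both sites.

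A gene was counted as past the fold when its deposited value was at least 25% higher or at least 20% lower under the label synj1+/-. By this count 1 of the 10 genes was higher above the lesion (ISL1), where 4.18% of all listed genes were. The listing of ISL1 there may rest on the group labelled synj1+/- alone, so its direction may be fixed by the listing. In the other direction 1 of the 10 was lower (CHAT), where 7.45% of all listed genes were. Below the lesion 0 of the 8 genes were past this fold in either direction, against 8.06% of all listed genes that were higher and 11.5% that were lower. The median log2 ratio of the genes was -0.04 above (10 genes) and 0.18 below (8 genes), beside -0.0039 and 0.014 over all listed genes. Above the lesion 4 of the 10 genes were over 0 and below the lesion 7 of the 8 were, a share not computed over all listed genes. With ratios centered on general neuron genes, 2 of the 10 above and 3 of the 8 below were over 0. Of all listed genes, 3824 of 13647 above and 2539 of 12338 below were over 0 when centered. The centered medians of the genes were -0.13 and -0.0056, beside -0.09 and -0.17 over all listed genes. The genes share libraries, so their common direction is not a set of independent observations.

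The sites were then set beside each other for the 8 genes listed at both, to show where the genotype ratio differs with position. Of these, 6 had a lower value above and a higher value below the lesion in the groups labelled synj1+/-, as did 22.0% of the 12025 symbols listed at both sites. With ratios centered on general neuron genes 3 of the 8 did, and the centered share of all symbols was not computed. The log2 ratio below minus that above was 0.57 for CHAT, 0.36 for SLC18A3 and 0.31 for SLC5A7. It was 0.24 for NEFL, 0.23 for NEFM and 0.21 for NEFH. It was 0.09 for MNX1 and -0.02 for PRPH. CHAT lay at percentile 97.5 of all symbols listed at both sites, SLC18A3 at 92.1, SLC5A7 at 89.0 and the neurofilament genes at 79.96 to 82.9. The median difference was 0.24 for the 8 genes, 0.16 for the 11 general neuron genes listed at both sites and 0.02 for all symbols. Without replicate values none of these differences between sites was tested.

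Levels below and above the lesion come from comparisons that the authors ran separately for each site, after reads had been reduced to a different number at each, so they are given as values side by side. The multiples are of deposited values, with the added 1 kept. In the groups labelled synj1+/+, the level below was 0.788 times that above for CHAT, 0.716 times for SLC5A7 and 0.853 times for SLC18A3. In the same groups it was 1.13 times for NEFL, 1.14 times for NEFM and 1.20 times for NEFH. In the groups labelled synj1+/- it was 1.17 times for CHAT, 0.886 times for SLC5A7, 1.09 times for SLC18A3 and 1.33 to 1.39 times for the neurofilament genes. PRPH was at 1.03 and 1.01 times. The neurofilament genes thus had the higher value below in both genotypes, and SLC5A7 the lower value below in both, while CHAT and SLC18A3 had the lower value below only in the groups labelled synj1+/+. The median of this log2 ratio over all symbols was -0.0008 in the groups labelled synj1+/+ and 0.02 in those labelled synj1+/-.

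Proportions within a group do not depend on the scaling of that group. The FPKM of NEFM was 1.48, 1.49, 1.49 and 1.503 times that of NEFL in the synj1+/+ and synj1+/- groups above and the synj1+/+ and synj1+/- groups below. That of NEFH was 0.456, 0.456, 0.487 and 0.479 times that of NEFL in the same order. These proportions differed by 1.02-fold and 1.07-fold between the lowest and the highest group. In GENCODE, NEFL at chr14:68083863-68089095 and NEFM at chr14:68082590-68124846 lie on opposite strands and share 1108 exonic bases, which is 32.8% of those of NEFL and 19.2% of those of NEFM. In these unstranded libraries reads from the shared bases cannot be told apart, and their part in the steady proportion was not tested. NEFH lies on another chromosome, at chr11:4938754-4948064, and no gene overlaps it.

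PRPH (chr15:99055174-99058978) was 0.315, 0.330, 0.287 and 0.251 times NEFL in that order of groups. For INA (alpha-internexin, a filament protein that assembles with the neurofilament subunits), the proportion was 0.159, 0.176, 0.138 and 0.156. Among the cholinergic genes, SLC5A7 was 2.15 and 2.12 times SLC18A3 above and 1.81 and 1.71 times below the lesion, so this proportion was split by site and not by genotype. CHAT was 0.253, 0.209, 0.229 and 0.227 times SLC18A3, with the synj1+/- group above the lesion lowest.

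**Figure D3:**
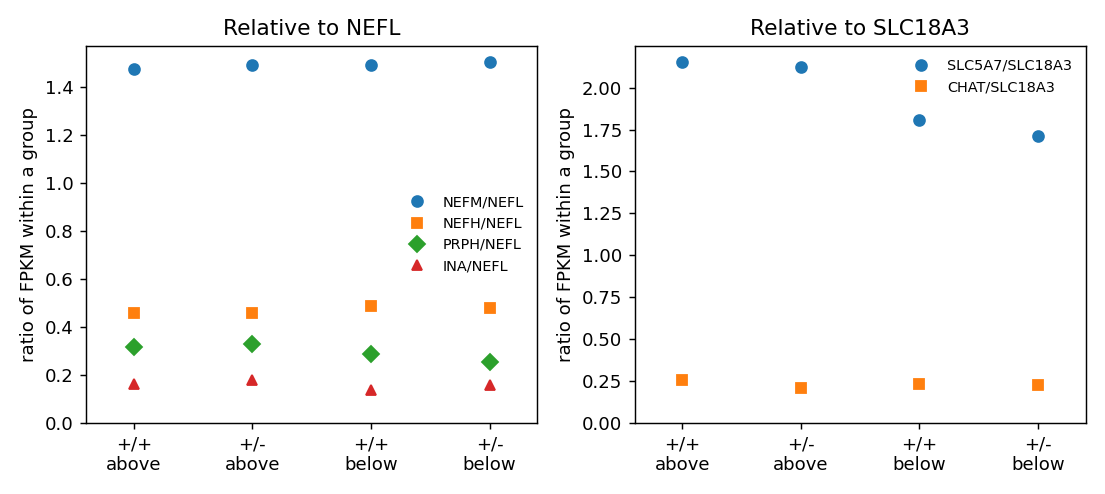
Ratio of FPKM between genes within each of the 4 groups, labelled by synj1 genotype and site, relative to NEFL (left) and to SLC18A3 (right), with 1 value per group and no error bars. NEFM over NEFL stays between 1.48 and 1.503, while SLC5A7 over SLC18A3 is 2.12 or more above the lesion and 1.81 or less below it.

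Other genes of the same pathways were described from lists. Of 16 acetylcholine receptor genes, 7 are listed above the lesion and 5 below. Above the lesion 0 of the 7 were past the fold and their median log2 ratio was 0.04. Below the lesion 5 of the 5 were higher in the group labelled synj1+/-, beside 8.06% of all genes, with log2 ratios from 0.35 to 0.63 and a median of 0.48. CHRNA4, a subunit of the main nicotinic receptor of the central nervous system, had an FPKM of 34.8 and 33.9 above and 26.1 and 40.9 below in the groups labelled synj1+/+ and synj1+/-. CHRM2, a muscarinic receptor found on cholinergic terminals, had 42.9 and 43.3 above and 38.7 and 49.7 below. The other 3 were CHRNA7, CHRM3 and CHRM4, each at an FPKM under 7 in every group where listed. Centered on general neuron genes, the log2 ratios of the 5 were 0.17 to 0.44 and 1 of the 5, CHRNA4, was past the fold, as 1.88% of all listed genes were.

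Of 24 further genes used to mark motor neurons or other cholinergic neurons, 21 are listed above the lesion and 20 below. Above the lesion 3 of the 21 were lower and 0 higher past the fold, beside 7.45% and 4.18% of all listed genes, with a median log2 ratio of -0.08. Among those lower above were GLIS3 and ISL2, with log2 ratios of -0.41 and -0.41. Below the lesion 4 of the 20 were higher and 5 lower, beside 8.06% and 11.5% of all listed genes, with a median of -0.01. Centered on general neuron genes, 0 of the 21 above the lesion were higher and 8 were lower, beside 2.34% and 12.6% of all listed genes. Below the lesion 1 of the 20 was higher and 8 were lower when centered, beside 1.88% and 26.5%. ESRRB, a nuclear receptor of gamma motor neurons, had an FPKM of 10.2 and 13.2 there (log2 ratio 0.34), and the others higher were HTR1D, NOS1 and UTS2B at 0.62, 0.34 and 0.33. Every gene listed below the lesion had a deposited value of at least 2.20562 in at least 1 group there. ALDH1A2, with deposited values of 2.81 and 2.14, may be listed only through the group labelled synj1+/+. The 5 lower genes were FBN2 and ALDH1A2, at -1.26 and -0.39, and 3 genes of higher level. SPP1 (osteopontin) had 1866 and 1109, ANXA4 70.9 and 46.7, and MMP9 11.7 and 8.73, with log2 ratios of -0.75, -0.59 and -0.39. SPP1 and MMP9 are also made by microglia and macrophages, and ANXA4 by many epithelial and other non-neuronal cells.

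Among genes that supply choline and acetyl-CoA or attach cholinesterase, those past the fold were all lower. Of 10, 9 are listed above and 6 below the lesion, with 2 and 1 lower past the fold, beside 7.45% and 11.5% of all listed genes. At both sites 0 were higher, beside 4.18% and 8.06%, and the medians were -0.11 and -0.07. Centered on general neuron genes, 3 of the 9 and 2 of the 6 were lower, beside 12.6% and 26.5%. None were over 0 when centered, beside 3824 of 13647 listed genes above and 2539 of 12338 below. CHKA (choline kinase alpha, which phosphorylates choline for membrane lipid synthesis) had an FPKM of 672 and 505 above the lesion (log2 ratio -0.41). PEMT, which makes phosphatidylcholine by methylation, had 11.7 and 5.01 above it (log2 ratio -1.08) and 15.7 and 6.10 below it (log2 ratio -1.23). PRIMA1, the membrane anchor of ACHE in the nervous system, had 45.9 and 40.8 below the lesion (log2 ratio -0.16).

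Of 8 other intermediate filament and linker genes, 8 are listed above and 4 below the lesion. VIM (vimentin, of reactive astrocytes and mesenchymal cells) was lower past the fold above, as were 7.45% of all listed genes, with an FPKM of 327 and 256 (log2 ratio -0.35). INA was higher past the fold below, as were 8.06% of all listed genes, with 105 and 135 (log2 ratio 0.36). Of 14 genes of neurofilament phosphorylation and turnover, 12 are listed above with 0 past the fold and a median of 0.0003. Below, 10 are listed with 1 higher and 0 lower, beside 8.06% and 11.5% of all listed genes, and a median of 0.15. The gene past the fold was CAMK2A, the alpha subunit of calcium/calmodulin-dependent kinase II, with an FPKM of 115 and 169 below (log2 ratio 0.56). CAPN2 (calpain 2, a protease that cleaves neurofilaments) had 50.7 and 41.01 there (log2 ratio -0.30).

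The axon injury response list had a median below 0 at both sites. Of 14 genes, 14 are listed above with 3 lower and 0 higher past the fold, beside 7.45% and 4.18% of all listed genes. Below, 13 are listed with 7 lower and 0 higher, beside 11.5% and 8.06%. Its medians were -0.12 above and -0.32 below, and 4 of the 13 genes below the lesion were over 0, with log2 ratios up to 0.13. Centered on general neuron genes, 4 of the 14 above and 8 of the 13 below were lower, beside 12.6% and 26.5% of all listed genes. At both sites 0 were higher when centered, beside 2.34% and 1.88%. SPRR1A, which is induced in injured neurons, had an FPKM of 82.9 and 51.1 above (log2 ratio -0.69) and 67.5 and 23.3 below (log2 ratio -1.497). NPY, a neuropeptide, had 22.6 and 14.3 below (log2 ratio -0.63), and GADD45A and KLF6, stress and regeneration genes, had 25.3 and 16.7 and 17.3 and 12.2 there. Above the lesion the others past the fold were the transcription factor ATF3 and the neuropeptide GAL, with log2 ratios of -0.33 and -0.38. Several of these genes are also expressed by glia and immune cells.

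Genes of other neurons were listed beside them. Of 16 general neuron genes, 14 are listed above with 0 past the fold and a median log2 ratio of 0.09. Below the lesion 11 are listed, 4 of them higher past the fold and 0 lower, beside 8.06% and 11.5% of all listed genes. Their median there was 0.19, close to the 0.18 of the 8 genes described here. Among the 4 higher genes were SYT1, SNAP25 and SYP, with log2 ratios of 0.54, 0.39 and 0.32. Of 7 inhibitory interneuron genes, 0 were past the fold above and 6 were higher below, beside 8.06% of all listed genes, with medians of 0.07 and 0.41. Centered on general neuron genes, 0 of the 7 were past the fold below and the median was 0.22. GAD1 (a GABA-synthesizing enzyme) had an FPKM of 238 and 315 below the lesion, and PVALB (parvalbumin) 38.4 and 54.5. Of 7 excitatory interneuron genes, 2 were higher above (CCK, EBF2) and 3 below (EBF2, LMX1B, TLX3), with medians of 0.15 and 0.24. The shares over all listed genes were 4.18% and 8.06%. Centered on general neuron genes, 0 of the 7 were higher past the fold above and 1 below, beside 2.34% and 1.88% of all listed genes. The summed deposited value of the general neuron genes was 13512 and 15026 above and 10894 and 13594 below, and the part of this in the values of the 10 genes was not tested.

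Markers of other cells also differed between the genotype labels. Over all listed genes, 7.45% were lower and 4.18% higher past the fold above the lesion, and 11.5% and 8.06% below it. Sums are of deposited values. Of 10 microglia and macrophage genes, 10 are listed above and 7 below, 5 (C1QA, CD68, CSF1R, ITGAM, TREM2) and 5 (AIF1, C1QA, CD68, CX3CR1, LGALS3) of them lower past the fold, and their summed value was 0.744 and 0.654 times that of the group labelled synj1+/+. Of 8 astrocyte genes, 0 above and 2 below (AQP4, GFAP) were lower past the fold, and the sum was 0.830 and 0.789 times. Of 8 fibroblast genes, 6 of 8 listed above and 6 of 7 listed below were lower, and the sum was 0.735 and 0.220 times. Among the 6 above, COL3A1 (deposited values 5.26 and 1.73) and LUM (2.67 and 1.86) may be listed only through the group labelled synj1+/+. Of 5 red blood cell genes, 5 above and 3 below (HBA-A1, HBA-A2, ALAS2) were higher, and the sum was 4.49 and 1.31 times. Of 8 oligodendrocyte genes 4 are listed at each site with 0 past the fold, and the sum was 0.960 and 0.941 times. The part of these cells in the values of the motor neuron, cholinergic and neurofilament genes was not tested.

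Tissue next to the cord that uses some of the same genes was looked at through its markers. Of 9 sensory ganglion genes, which would accompany PRPH, NEFH and ISL1 from dorsal root ganglia, 1 is listed at each site, POU4F1, with an FPKM of 13.7 and 12.9 above and 11.0 and 13.2 below. Of 10 skeletal muscle genes, 0 are listed above the lesion, where ACHE is listed, and 2 below (ACTA1, MYLPF), both at an FPKM under 6. Of 7 Schwann cell genes, which would accompany axons of nerve roots, 3 are listed above with 1 higher (NCMAP, FPKM 7.49 and 14.6), beside 4.18% of all listed genes. Below, 5 are listed with 4 lower, among them EGR2, NCMAP and PMP2, beside 11.5% of all listed genes. PMP2, with deposited values of 2.22 and 1.53, may be listed only through the group labelled synj1+/+. The Schwann cell sum in the groups labelled synj1+/- was 1.20 times as high above, or 1.04 times without NCMAP, and 0.576 times as high below, where other genes of the list enter it. The part of these tissues in the values of the 10 genes was not tested.

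**Figure D4:**
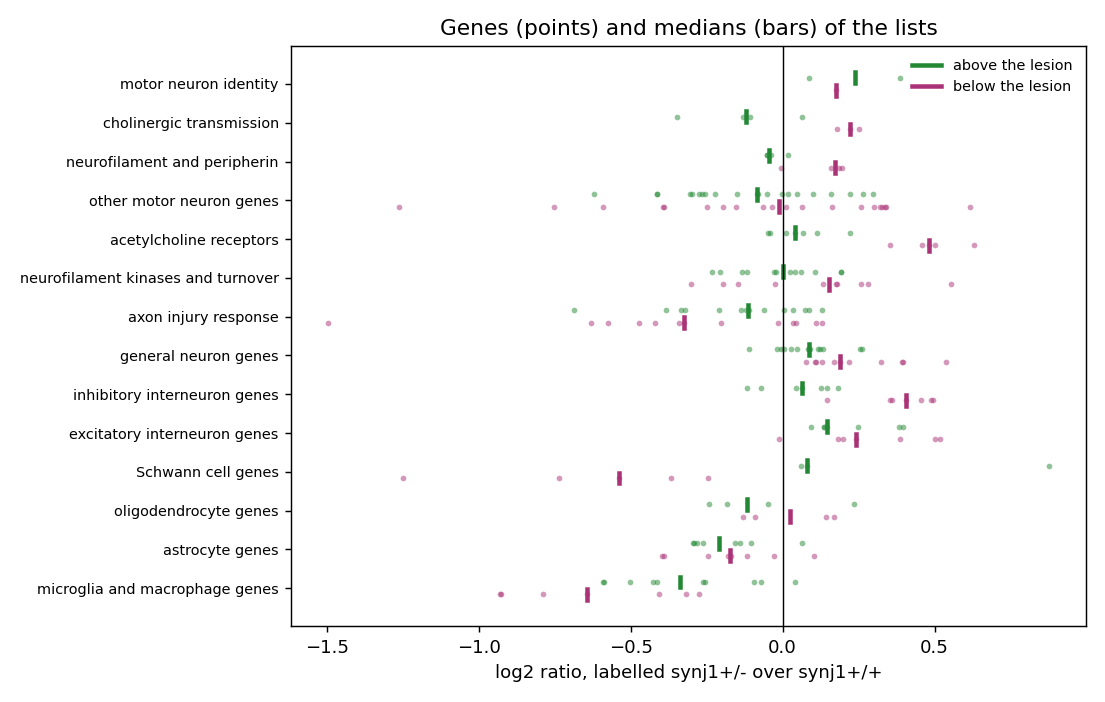
Points are the listed genes of each list and bars their median, as the log2 ratio, synj1+/- over synj1+/+ as labelled, above (green) and below (purple) the lesion. The acetylcholine receptor and inhibitory interneuron medians below the lesion (0.48 and 0.41) lie to the right of those of the cholinergic and neurofilament genes (0.22 and 0.17), and the axon injury and microglia medians lie to the left of 0 at both sites. Centering on general neuron genes shifts all points to the left by 0.09 above and 0.19 below, which takes the neurofilament median below 0 at both sites.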

How the data were processed

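Total RNA from spinal cord segments was sequenced in 12 libraries. Per the labels and the study's methods, the authors reduced the reads of a site at random to those of its smallest library, aligned them to the mouse genome (GRCm38.p6 in the submitters' processing notes) with STAR 2.5.4b, and computed FPKM with upper quartile normalization and Cuffdiff 1.3.0. The deposited table holds a value for each listed gene, genotype and site, with the 3 libraries combined, which was read here as FPKM plus 1. It has 0 columns of single libraries. Its columns of fold changes, p-values and q-values, and a shorter list of genes, hold the authors' own comparison and were not used.

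From the group values, log2 ratios, medians and counts past a fold (at least 25% higher or 20% lower) were computed for all listed genes with Python 3.11.15, numpy 2.4.6 and pandas 2.3.3, and drawn with matplotlib 3.10.9. With a single value per group no test was run. The calculations were tested on simulated data. Alternatives were other folds, other added constants, a mean value of at least 10, and centering on all or on general neuron genes. Named genes were the 10 members, SYNJ1, and up to 4 genes per list and site with the largest absolute log2 ratio at a mean value of at least 10. Other genes named for a count of 5 or fewer, as defining markers or for their other site were chosen after their values were seen. The members and lists were chosen with earlier results of these data known. Gene positions are from GENCODE M21, and symbols were matched by name without regard to case. Some genes of the lists enter the counts and medians but are not reported by name here.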

Additional observations from a re-analysis of the deposited data

Results flagged for a closer look

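Among the 8 genes with values above and below the lesion, the direction of the genotype ratio was opposite at the sites for 7. Of the 7, 6 had a lower value above and a higher value below, as did 22.0% of all symbols listed at both sites. The share of all symbols with opposite directions in either order was not computed. Centered on general neuron genes, 3 of the 7 genes (CHAT, SLC18A3 and NEFM) kept opposite directions. The log2 ratio below minus that above was 0.571 for CHAT, 0.360 for SLC18A3, 0.307 for SLC5A7, 0.237 for NEFL, 0.234 for NEFM, 0.212 for NEFH and -0.0226 for PRPH. PRPH ran in the other direction from the rest, and its log2 ratio was within 0.02 of 0 at both sites. These differences rest on 1 value per group and were not tested.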

How the results depend on the processing

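Leaving out libraries was not run, because the table combines the 3 libraries of a group. No paired analysis was possible because no values of single libraries were used. A log2 value was taken as unmoved when it changed by less than 0.1, since no spread between libraries is available. Of 18 log2 ratios of single genes, 17 were unmoved with the lowest value subtracted (ISL1 moved, to 0.73) and 14 with 10 added. Centering subtracts a constant from every gene of a site, 0.09 above and 0.19 below for general neuron genes, and neither CHAT nor ISL1 above the lesion, the genes past the fold, changed direction with it. A fold of 1.5, or a mean value of at least 10, left 0 genes past the fold in each direction above the lesion, and centering on general neuron genes left 0 higher there. A fold of 1.1 gave 7 genes higher below the lesion in place of 0. The share of all listed genes past a fold of 1.1 was not computed, so this count has no background to be read against. The upper quartile of the log2 ratios of all listed genes below the lesion was 0.155, which is itself past a fold of 1.1. Centering on general neuron genes moved the median below the lesion to -0.0056, the median difference between the sites to 0.134, and the number of genes lower above and higher below from 6 to 3, a count whose alternatives were chosen after seeing the data. Leaving out each gene in turn kept the medians between -0.05 and -0.04 above and between 0.18 and 0.19 below. The low level of MNX1, ISL1 and CHAT limits what can be read from their ratios. The centered list counts were also added after seeing the data.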

Other observations

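Relative to NEFL, the choline transporter SLC5A7 was lower below the lesion than above it in both genotypes, at 0.124 and 0.117 times the FPKM of NEFL above and 0.0783 and 0.0780 times below in the groups labelled synj1+/+ and synj1+/-. Relative to SNAP25, a vesicle fusion protein of most neurons, NEFL was lower in the groups labelled synj1+/- at both sites, at 0.130 and 0.105 times above and 0.145 and 0.126 times below. This depends on the gene used: the log2 ratio of NEFL was exceeded by 13 of 14 general neuron genes above and by 6 of 11 below, and SNAP25 was among the higher ones. These proportions have no error, since each rests on 1 value per group.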
